A study of Mus musculus with 8 samples.

Results

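The 9 CC chemokine genes described here, Ccl2, Ccl3, Ccl4, Ccl5, Ccl6, Ccl7, Ccl9, Ccl11 and Ccl19, were taken by symbol from the gene column of the count tables, which list 28956 genes. They were measured by single-cell RNA-seq in suspensions of mouse femoral stromal cells, which had been depleted of blood lineage cells, of CD45+ cells and of CD117+ cells with magnetic beads. All mice were C57BL/6 wild-type females aged 12 weeks. Control femurs were unfractured, and Fracture femurs came from left legs broken at 10 weeks by three-point bending under ketamine and xylazine, nailed inside the marrow cavity, treated with the analgesic carprofen, and collected on day 14. Each group holds 2 preparations of 2 libraries each, and the libraries of a preparation were summed, so that n = 2 per group. The labels do not say how many mice entered a preparation, and p-values measure only the spread between these preparations.

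After filtering, 45328 cells remained, with 7921 to 12785 per preparation, and a preparation held 94607018 to 163319296 unique molecular identifiers (UMIs), each of which stands for a captured RNA molecule. The median cell of Control 1 and 2 held 7302 and 8278 UMIs, and that of Fracture 1 and 2 held 11011 and 11694, while blood clusters took 28.2 and 36.8% of Control cells but 2.71 and 3.07% of Fracture cells. Cells were put in classes by clustering after integration and by marker genes, without using the chemokines. Basophils were taken by a gate instead, at least 20 UMIs of Mcpt8 and Prss34, both basophil proteases, per 10000 UMIs of a cell. Levels are given in CPM, the UMIs of a gene per 1000000 UMIs of the summed cells.

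The class names hold less well in Fracture than in Control for the marrow stromal cells. The marker list of bone mesenchymal stromal cells (BMSCs) summed to 26712 and 28035 CPM in Control BMSC-like cells and to 1897 and 2187 CPM in Fracture ones. Diaphyseal stromal cells (dpMSC-like), the part of the mesenchymal cells with Esm1, Adipoq, Lepr and Il1rn, held 7561 and 7087 CPM of these dpMSC marker genes in Control and 300.0 and 463 CPM in Fracture. In the same dpMSC-like cells the fibroblast marker list summed to 51.5 and 14.1 CPM in Control and to 1760.3 and 1658 CPM in Fracture. The names are therefore used for what the integrated clusters hold, and the levels of Ccl2, Ccl5, Ccl7, Ccl9 and Ccl19 in BMSC-like cells are given below for clusters made without integration as well. Metaphyseal (mpMSC-like) cells held 8459 and 7863 CPM of their mpMSC marker list in Control and 9923 and 8864 CPM in Fracture. The smooth muscle list summed to 39809 and 37602 CPM in Control smooth muscle-like cells and to 20423 and 21879 CPM in Fracture ones.

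CC chemokines are small secreted proteins with a pair of adjacent cysteines near the start of the mature chain. They bind to receptors of the CCR family on leukocytes and draw those cells along a gradient, and atypical receptors of the ACKR family take them up without signalling. In bone marrow, stromal chemokines of this family are known for guiding monocytes into the blood, and activated basophils and other myeloid cells are known as sources of the macrophage inflammatory proteins.

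The cysteine pair that gives the family its name is shown here in its coding sequence for 8 of the 9 genes, because it is what the members share at the DNA level. Each line gives 30 coding bases, 5′ to 3′ on the coding strand, from the GENCODE M21 models on GRCm38, with the codons of the adjacent cysteines in capitals.
Ccl2, chr11:82036494-82036523, plus strand: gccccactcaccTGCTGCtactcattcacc
Ccl7, chr11:82046526-82046555, plus strand: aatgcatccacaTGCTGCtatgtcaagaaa
Ccl11, chr11:82061684-82061713, plus strand: atcccaacttccTGCTGCtttatcatgacc
Ccl5, chr11:83529230-83529259, minus strand: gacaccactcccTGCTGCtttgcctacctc
Ccl9, chr11:83575914-83575943, minus strand: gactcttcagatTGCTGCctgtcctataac
Ccl6, chr11:83589374-83589403, minus strand: acttcttcagacTGCTGCttctcttatgcc
Ccl4, chr11:83663470-83663499, plus strand: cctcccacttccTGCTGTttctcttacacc
Ccl19, chr4:42755248-42755277, minus strand: gatgcggaagacTGCTGCctgtctgtgacc

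Among the genes shown, the pair is written TGCTGT in Ccl4 and TGCTGC in the others. Over the 30 bases, those of the pair included, Ccl6 and Ccl9 share 21. Of the 9 genes, 8 lie on chromosome 11 in 2 groups. Ccl2 (82035571-82037453), Ccl7 (82045712-82047525) and Ccl11 (82057823-82062955) follow each other on the plus strand with 8258 and 10297 bases between them. After a gap of 1462822 bases come Ccl5 (83525778-83530518), Ccl9 (83572919-83578636), Ccl6 (83587882-83593087), Ccl3 (83647844-83649355) and Ccl4 (83662584-83664683), with Ccl4 alone of these 5 on the plus strand. Ccl19 (42754525-42756577) lies on chromosome 4. Its transcripts share a run of 324 bases with the pseudogene Ccl19-ps3, so reads of Ccl19 could be lost or split in counting and its values are uncertain, while the longest run between members, from Ccl6 to Ccl9, is 25 bases.

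Over all cells together, 5 members fell after fracture and 3 rose. The chemokines of basophils and other myeloid cells, Ccl3, Ccl4, Ccl6 and Ccl9, and the lymphocyte attractant Ccl19 fell in Fracture, whereas Ccl5, Ccl7 and Ccl11 rose and Ccl2 did not pass the test. By edgeR's quasi-likelihood test with Benjamini-Hochberg adjustment, 8 of the 9 members passed the adjusted p threshold of 0.05, 3 higher and 5 lower in Fracture, where 28.5% of all 20452 genes tested passed, 13.6% higher and 14.9% lower. The median log2 fold change was -2.82 over the members and -0.08 over all genes. Without either Fracture preparation, when the remaining one is assumed to vary like Control, 0 members passed.

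Ccl3, a macrophage inflammatory protein, stood at 215 and 113 CPM in Control 1 and 2 and at 1.72 and 0.955 CPM in Fracture 1 and 2. Its log2 fold change was -6.66 ± 0.58 (SE, adjusted p = 0.00937). Ccl4, the neighbouring macrophage inflammatory protein, followed with 254, 88.3, 2.47 and 1.59 CPM in the same order of preparations. Both genes lay far lower in both Fracture preparations than in either Control one, with a log2 fold change of -6.12 ± 0.73 for Ccl4 (adjusted p = 0.0147). Ccl6, a myeloid chemokine, measured 18.6, 16.1, 0.491 and 0.502 CPM, a log2 fold change of -4.84 ± 0.16 (adjusted p = 0.00559). Ccl9, its relative and a ligand of Ccr1, measured 48.6, 35.6, 2.11 and 2.20 CPM, a log2 fold change of -4.00 ± 0.22 (adjusted p = 0.00597). Ccl19, which draws Ccr7+ lymphocytes and dendritic cells, was lower too, at 3.49, 4.97, 0.463 and 0.514 CPM (log2 fold change -2.82 ± 0.25, adjusted p = 0.00966).

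On the other side, Ccl5 (RANTES), an attractant of T cells and monocytes, stood at 0.730 and 0.211 CPM in Control and 4.82 and 5.62 CPM in Fracture, a log2 fold change of 3.72 ± 0.64 (adjusted p = 0.0266). Ccl7, a monocyte chemoattractant, rose from 2.84 and 2.57 to levels of 7.43 and 9.55 CPM, with a log2 fold change of 1.93 ± 0.19 (adjusted p = 0.0113). Ccl11 (eotaxin), which draws eosinophils, rose from 0.272 and 0.222 CPM, 35 and 21 UMIs, to 0.555 and 0.514 CPM, 78 and 84 UMIs (log2 fold change 1.39 ± 0.25, adjusted p = 0.0280). For these 3 genes the groups did not overlap. Ccl2, the main monocyte chemoattractant, lay at 12.0 and 20.4 CPM in Control and 14.9 and 26.6 CPM in Fracture, so the groups overlapped (log2 fold change 0.65 ± 0.41, adjusted p = 0.284). In such sums, fewer cells of a type and less RNA per cell cannot be told apart. The number of blood cells in a suspension also depends on how far the bead depletion went, and the barcode cut differed between the groups. Neither can be told apart here from an effect of fracture.

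The share of each gene's UMIs that came from each class shows what these sums rest on. Basophils held 93.9 and 96.3% of the Ccl3 UMIs of the Control preparations and 72.3 and 56.4% of those of the Fracture preparations, while their number went from 1586 and 688 cells to 27 and 25. They held 90 and 93.5% of Control Ccl4, 74.0 and 78.1% of Control Ccl6 and 71.3 and 77.9% of Control Ccl9. For Ccl6, the largest Fracture share was instead that of chondrocyte-like cells, at 55.1 and 56.1%, and these cells made up 57.4 and 55.9% of all Fracture cells. Ccl2 came to 83.0 and 82.6% from BMSC-like cells in Control, while in Fracture fibroblast-like cells held 51.1 and 62.1% of it and BMSC-like cells 25.2 and 20.5%. Fibroblast-like cells held 74.3 and 77.3% of the Ccl5 UMIs in Fracture, out of 677 and 918. BMSC-like cells held 86.2 and 95.3% of the Ccl19 UMIs in Control and 52.3 and 59.5% in Fracture. These Fracture shares depend on the clustering, since without integration the BMSC-like class held 23 of the 65 and 31 of the 84 Ccl19 UMIs and 11 of the 2091 and 125 of the 4346 Ccl2 UMIs.

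**Figure D1:**
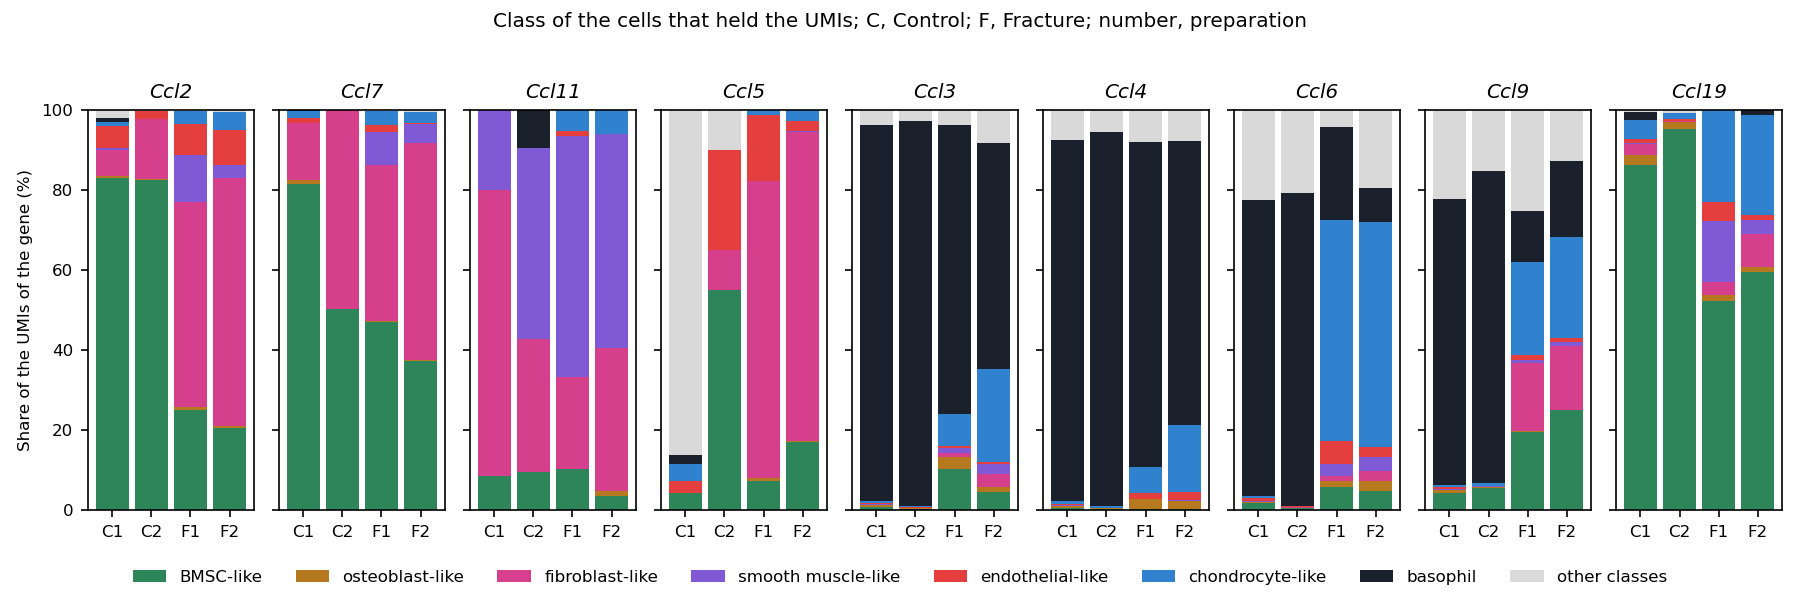
Share of each chemokine's UMIs (vertical axis, percent) that came from each class in the 4 preparations, Control 1 and 2 (C1, C2) and Fracture 1 and 2 (F1, F2), with 1 panel per gene and 1 colour per class. Basophils fill 93.9 and 96.3% of the Control bars of Ccl3, while Ccl2 passes from BMSC-like cells in Control (83.0 and 82.6%) to fibroblast-like cells in Fracture (51.1 and 62.1%).

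Each preparation's class levels were also weighted by the Control makeup, the mean share of UMIs that each class held in the Control preparations. The Fracture values of Ccl3, Ccl4, Ccl6 and Ccl9 at this makeup rest largely on 27 and 25 basophils. Ccl3 then stood at 191 and 129 CPM in Control and 76.6 and 34.3 CPM in Fracture, Ccl6 at 17.8 and 18.4 against 7.68 and 3.88 CPM, and Ccl9 at 42.3 and 42.2 against 25 and 32.2 CPM. Ccl4 at that makeup overlapped between the groups, at 224 and 102 CPM in Control against 123 and 69.1 CPM in Fracture. Ccl5 remained higher in Fracture at 2.67 and 3.30 against 0.571 and 0.217 CPM, Ccl7 at 8.91 and 9.27 against 2.91 and 2.87 CPM, and Ccl11 at 0.851 and 0.735 against 0.223 and 0.302 CPM. With the integrated classes, the differences of Ccl3, Ccl6 and Ccl9 were thus smaller at this makeup, while those of Ccl7 and Ccl11 were not. For Ccl7 this depends on the clustering. Without integration BMSC-like cells held 0 and 0.349 CPM of Ccl7 in Fracture, and the weighting was not repeated with those classes. Ccl2 stood at 12.4 and 20.3 CPM in Control and at 15.3 and 20.4 CPM in Fracture. Ccl19 remained lower in Fracture, at 0.637 and 0.998 against 3.62 and 4.72 CPM. With the blood cells removed, the all-cell calls of Ccl11 (log2 fold change 0.79) and Ccl6 (log2 fold change -0.64) were lost.

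The question within classes was whether the level of each chemokine per class differed after fracture. It was tested in the 11 classes, the gated basophils and the dpMSC-like and mpMSC-like subsets included, that held at least 20 cells in every preparation, and the members gave 23 calls over them. The subsets overlap the BMSC-like class, so their calls repeat part of its calls. Without Fracture 1 or Fracture 2, 4 and 5 calls were made, and that of Ccl19 in BMSC-like cells was made both times. The share of all genes called differed between classes, from 53.3% in dpMSC-like and 51.7% in BMSC-like cells to 0.163% in erythroid-like cells and 0% in basophils, and member counts are read against it. The filter on low counts left 7 members for the test in BMSC-like, dpMSC-like and chondrocyte-like cells, 5 in fibroblast-like, 4 in mpMSC-like, endothelial-like, basophil-like cells and basophils, 3 in smooth muscle-like and osteoblast-like cells, and 0 in erythroid-like cells. In 10 of the 23 calls neither preparation of the lower group reached the filter, so that the gene entered the test through the group where it was high and the call adds little to its counts. These are Ccl2 and Ccl7 in smooth muscle-like cells, Ccl2 in osteoblast-like cells, Ccl5 in fibroblast-like and dpMSC-like cells, Ccl3 in dpMSC-like, endothelial-like and osteoblast-like cells, and Ccl4 in BMSC-like and dpMSC-like cells.

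**Figure D2:**
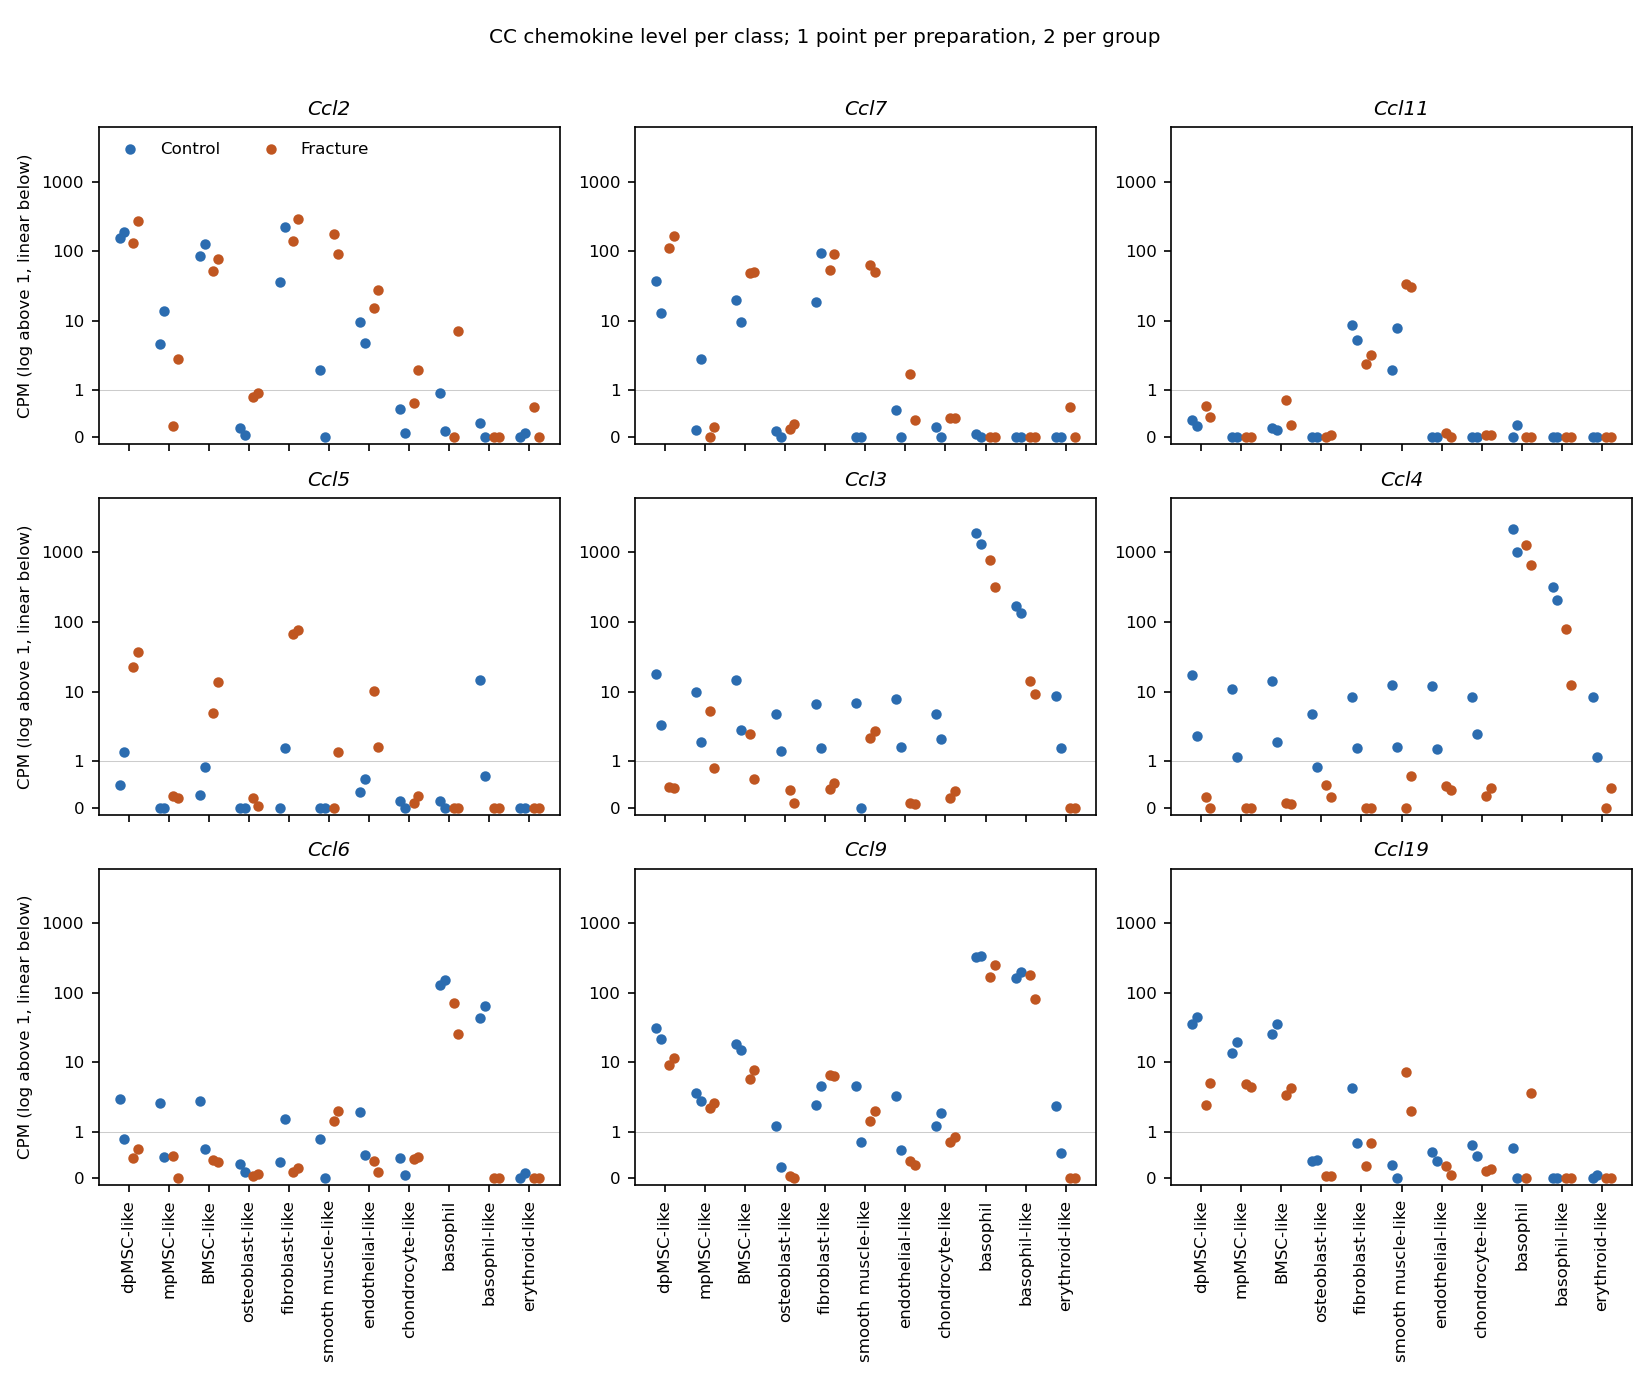
Level of each CC chemokine (CPM, vertical axis, logarithmic above 1 CPM and linear below) in 11 classes, with 1 point per preparation, Control and Fracture in different colours. Ccl3 and Ccl4 stand highest in basophils, Ccl2 and Ccl7 in dpMSC-like, fibroblast-like and Fracture smooth muscle-like cells, Ccl5 in Fracture fibroblast-like cells (66.8 and 77.0 CPM) and Ccl19 in Control dpMSC-like cells (36.0 and 44.1 CPM).

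Ccl2 and Ccl7, the monocyte chemoattractants that act through Ccr2, were highest in the stromal fraction. In Control BMSC-like cells Ccl2 stood at 84.5 and 126 CPM, and in Fracture ones at 52.0 and 77.6 CPM, a log2 fold change of -0.51 ± 0.29 that did not pass the test (adjusted p = 0.196). Without integration the Control levels of Ccl2 were 79.6 and 120.1 CPM and the Fracture levels 2.23 and 21.8 CPM, so the Fracture values of this class depend strongly on the clustering. In dpMSC-like cells the Control values were 155 and 187 CPM and the Fracture values 132 and 268 CPM, so Fracture spanned the Control range (log2 fold change 0.47 ± 0.36, adjusted p = 0.319). These sums rest on 232 and 196 Ccl2+ cells in Control and 79 and 93 in Fracture. The mpMSC-like cells held far less of it, at 4.71, 13.8, 0.242 and 2.79 CPM, with no call (adjusted p = 0.116).

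Ccl7 did pass the test in both: in BMSC-like cells it went from 19.7 and 9.69 up to 48.4 and 50.4 CPM, which is a log2 fold change of 1.94 ± 0.35 (adjusted p = 0.0115). In dpMSC-like cells it went from 37.3 and 12.8 CPM to 111 and 168 CPM, on 299, 105, 504 and 788 UMIs, a log2 fold change of 2.73 ± 0.55 (adjusted p = 0.0131). Both Fracture preparations lay above both Control ones. In BMSC-like cells, 7 members were tested and 5 passed, 2 higher and 3 lower, where 51.7% of genes passed, 25.6% higher and 26.1% lower. In dpMSC-like cells 6 of 7 passed, 2 higher and 4 lower, where 53.3% of genes did, 27% higher and 26.3% lower.

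The rise of Ccl7 in BMSC-like cells depends on how Fracture cells are placed. In clusters made without integration, BMSC-like cells held 18.8 and 9.2 CPM of Ccl7 in Control but 0 and 0.349 CPM in Fracture, a reversed log2 fold change of -6.00. Of the Fracture dpMSC-like cells, 80.9 and 77.8% then lay in the fibroblast-like class and carried 94.8 and 92.5% of the Ccl7 UMIs of these cells, whereas 98.7 and 99.7% of the Control dpMSC-like cells stayed BMSC-like. In the fibroblast-like cells of those clusters Ccl7 measured 14.6 and 84.6 CPM in Control and 70.4 and 93.4 CPM in Fracture. The comparison of Ccl7 in BMSC-like cells thus changes with the class that the Fracture cells are put in.

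In fibroblast-like cells of the integrated clusters Ccl2 measured 36.1 and 222 CPM in Control and 142 and 293 CPM in Fracture, with no call (log2 fold change 0.90 ± 0.84, adjusted p = 0.500). Of the 289 Ccl2 UMIs of Control 2, 223 came from 1 cell. Ccl7 in the same class measured 18.4 and 92.9 CPM against 54.1 and 91.4 CPM (adjusted p = 0.617), and 71 of its 121 UMIs in Control 2 were in 1 cell. The Control values of both genes in this class therefore rest on few cells, 8 and 5 Ccl2+ cells, against 72 and 99 in Fracture.

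Smooth muscle-like cells, the mural cells of vessels, gave the largest rise of these 2 genes among the classes tested. Ccl2 there went from 1.98 and 0 CPM, 7 and 0 UMIs, to 177 and 90.3 CPM, 245 and 133 UMIs in 30 and 28 cells, a log2 fold change of 6.53 ± 0.65. The Ccl7 counts were 0 and 0 UMIs in Control and 87 and 74 UMIs in Fracture, or 62.8 and 50.3 CPM in 23 and 19 cells. Set against the limit of 3 counts that a count of 0 allows over the group, Ccl7 was at least 90.3-fold higher in Fracture. Ccl11 rose in these cells as well. These 3 members were the ones tested in smooth muscle-like cells, where 26.8% of genes passed, 14.4% of genes being higher, and Ccl2 and Ccl7 came through the low-count filter on their Fracture counts alone, so that their tests add little to these counts. Chondrocyte marker genes, which smooth muscle cells lack, summed in the same class to 439 and 118 CPM in Control and to 8797 and 5600 CPM in Fracture, and their part in the result was not tested. Without integration the rise was of the same kind, with Ccl2 at 1.92 and 0 against 171 and 130 CPM and Ccl7 at 0 and 0 against 67.6 and 51.5 CPM.

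Smaller amounts of Ccl2 were found elsewhere. In endothelial-like cells Ccl2 rose from 9.63 and 4.82 to levels of 15.1 and 28 CPM, with a log2 fold change of 1.71 ± 0.45 (adjusted p = 0.0442), where 36.9% of genes passed. Of the 84 UMIs of Control 1, 51 came from 1 cell, and the call was lost in 5 of the 16 alternatives run. Osteoblast-like cells showed a rise from 0.190 and 0.0487 to levels of 0.857 and 0.954 CPM, on 6, 1, 16 and 21 UMIs (log2 fold change 2.67 ± 0.54, adjusted p = 0.0370), where 16% of genes passed, and it entered the test through those Fracture counts. In chondrocyte-like cells it lay at 0.609, 0.0815, 0.732 and 2.00 CPM and did not pass (adjusted p = 0.175).

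Ccl7 was more frequent in cells with Ccl2 than in cells without it. After each cell was brought to 1000 UMIs, Ccl7 was held by 14.9 and 7.08% of Ccl2+ dpMSC-like cells in Control and by 37.1 and 41.0% in Fracture. Among dpMSC-like cells without Ccl2 these shares were 1.58 and 0.821% in Control and 4.15 and 3.80% in Fracture. Fracture fibroblast-like cells showed the same order, with 31.2 and 41.1% of Ccl2+ cells against 1.64 and 1.90% of the others, and so did Fracture smooth muscle-like cells, with 28.3 and 10.9% against 2.58 and 2.17%. Ccl19 was also more frequent in Ccl2+ dpMSC-like cells of Control, at 7.08 and 6.80%, than in those without Ccl2, at 2.97 and 3.82%. These shares are descriptions across cells of the same libraries.

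Ccl11 was sparse, with 35, 21, 78 and 84 UMIs over all cells. In smooth muscle-like cells it rose from 1.98 and 7.91 CPM, 7 and 10 UMIs, to 33.9 and 30.6 CPM, 47 and 45 UMIs in 14 and 15 cells, a log2 fold change of 3.05 ± 0.55 (adjusted p = 0.0149). In fibroblast-like cells the order was the other way, with 8.84 and 5.37 CPM in Control and 2.39 and 3.25 CPM in Fracture, but this did not pass the test (log2 fold change -1.33 ± 0.39, adjusted p = 0.0829), and 17 of the 18 UMIs of Fracture 1 were in 1 cell.

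Ccl5 was a fibroblast-like transcript of the Fracture preparations. In that class it was counted 0 and 2 times in Control, 0 and 1.54 CPM, and 503 and 710 times in Fracture, 66.8 and 77.0 CPM, in 43 and 45 cells. The ratio of the group levels was 150, with a 95% exact counting interval of 41.3 to 1236, which covers counting error only, as do all intervals and limits given here. Ccl5 came through the low-count filter only on its Fracture counts. None of the other 4 members tested in fibroblast-like cells passed, where 14.7% of genes did. Without integration the fibroblast-like counts of Ccl5 were 4 and 2 UMIs in Control and 505 and 758 UMIs in Fracture, the last pair at 40.6 and 51.9 CPM, a log2 fold change of 5.19 beside 7.20 with integration. No single cell carried the result, since the largest held 12.9 and 12.5% of the Fracture UMIs.

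In dpMSC-like cells Ccl5 rose from 0.498 and 1.34 CPM to 22.3 and 36.8 CPM, on 4, 11, 101 and 173 UMIs, a log2 fold change of 5.21 ± 0.49 (adjusted p = 0.00167), and entered the test through its Fracture counts. Only 8 and 14 Fracture cells held it, and the largest held 46.5 and 41.0% of the UMIs. Without integration most Fracture dpMSC-like cells lay in the fibroblast-like class. In BMSC-like cells Ccl5 rose from 0.264 and 0.873 to levels of 4.94 and 13.7 CPM (log2 fold change 4.26 ± 0.78, adjusted p = 0.0122), and 35 of the 50 UMIs of Fracture 1 came from 1 cell. Without integration the BMSC-like levels of Ccl5 overlapped, at 0.249 and 0.830 CPM in Control against 0 and 5.24 CPM in Fracture. In endothelial-like cells it measured 0.344, 0.618, 10.3 and 1.63 CPM and did not pass (adjusted p = 0.0770), with 91 of the 112 UMIs of Fracture 1 in 1 cell. T and natural killer cells are known for Ccl5, and their marker lists summed to at most 5.39 CPM in any of the stromal classes. Whether such cells hold part of the Ccl5 UMIs was not tested.

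Ccl19 was lower in the marrow stromal classes of Fracture. BMSC-like cells held 25.5 and 35.6 CPM in Control and 3.36 and 4.35 CPM in Fracture, on 387, 448, 34 and 50 UMIs, a log2 fold change of -2.79 ± 0.25 (adjusted p = 0.00264). In dpMSC-like cells it fell from 36.0 and 44.1 CPM to 2.43 and 5.11 CPM (log2 fold change -3.16 ± 0.35, adjusted p = 0.00248). Of these Fracture cells, 80.9 and 77.8% lay in the fibroblast-like class without integration, so the groups hold unlike dpMSC-like cells. Its part in this fall was not tested. In mpMSC-like cells, where 4 members were tested and 27.7% of genes passed, Ccl19 was the only member called, from 13.5 and 19.6 CPM to 4.84 and 4.5 CPM (log2 fold change -1.66 ± 0.27, adjusted p = 0.0131). The Fracture preparations thus lay below the Control ones in each of these classes. Without integration the BMSC-like values were 24.4 and 34.2 against 4.66 and 5.41 CPM, but that class holds unlike cells in the groups. It took in 1637 and 1213 of the dpMSC-like cells in Control and 56 and 84 in Fracture. Of the mpMSC-like cells it took in 880 and 492 in Control and 408 and 429 in Fracture. The part of this mix in the fall was not tested. Chondrocyte-like cells held at most 0.710 CPM, with a fall from 0.710 and 0.489 to 0.169 and 0.207 CPM (log2 fold change -1.59 ± 0.33, adjusted p = 0.0255).

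**Figure D3:**
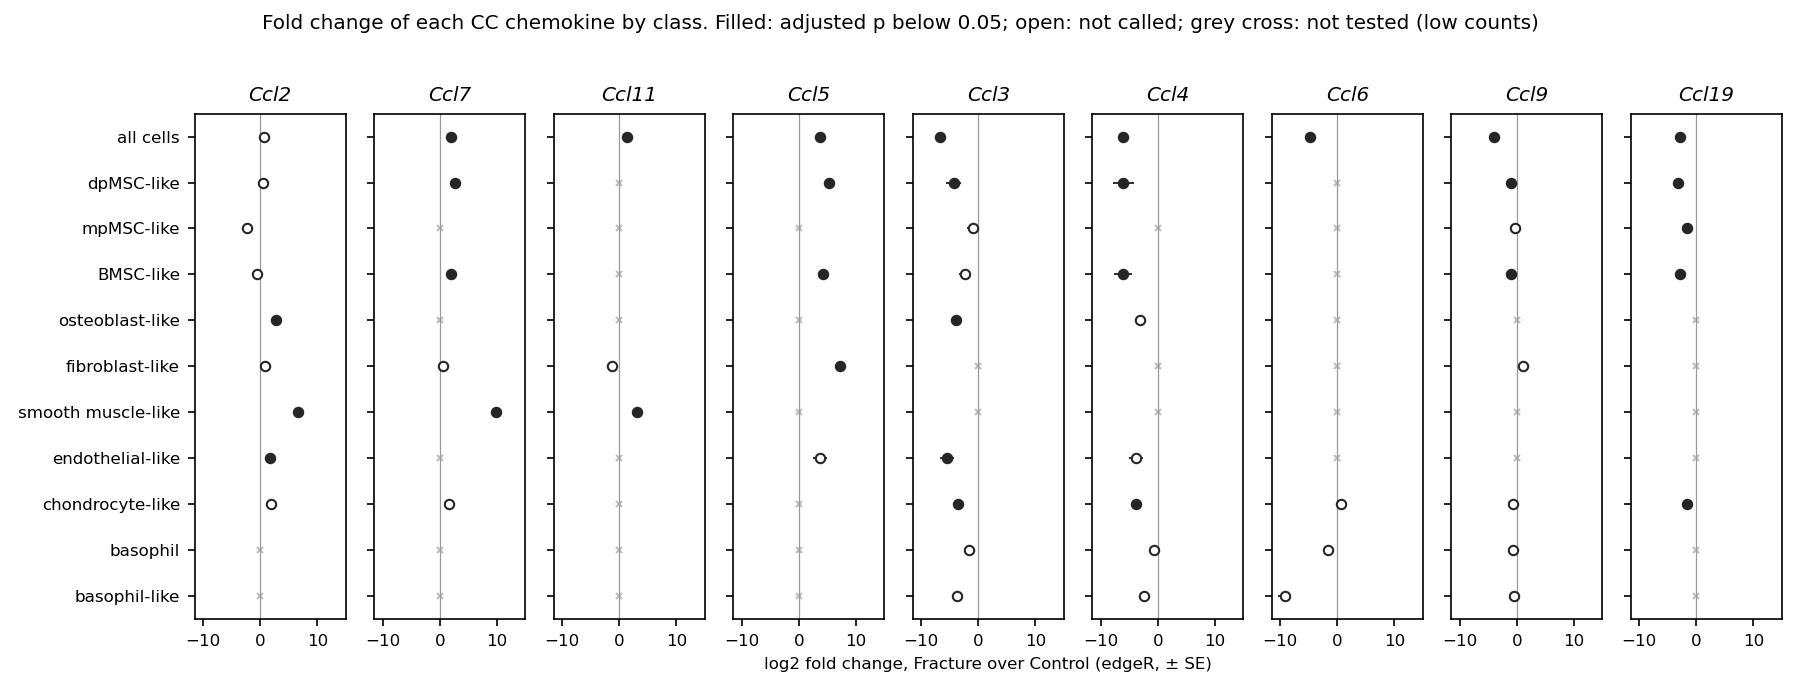
Log2 fold change of Fracture over Control (horizontal axis) with its SE for each chemokine in the classes tested, where filled points passed the adjusted p threshold, open points did not and a grey cross at 0 marks a gene that was not tested in that class. Ccl7 in smooth muscle-like cells (9.77) lies farthest to the right, fitted against Control counts of 0, followed by Ccl5 in fibroblast-like cells (7.20) and Ccl2 in smooth muscle-like cells (6.53).

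Ccl3 and Ccl4 in basophils themselves showed no call. In basophils Ccl3 stood at 1888 and 1313 CPM in Control and at 788 and 319 CPM in Fracture, on 26009, 10257, 175 and 88 UMIs (log2 fold change -1.58 ± 0.49, adjusted p = 0.216). Ccl4 in basophils stood at 2138 and 1000 CPM in Control and at 1266 and 668 CPM in Fracture, so that the groups overlapped (log2 fold change -0.75 ± 0.49, adjusted p = 0.489). Ccl6 in basophils measured 128 and 152 CPM against 72.1 and 25.4 CPM (log2 fold change -1.59 ± 0.48, adjusted p = 0.213), and Ccl9 measured 324 and 336 CPM against 167 and 247 CPM (log2 fold change -0.72 ± 0.22, adjusted p = 0.216). For Ccl3, Ccl6 and Ccl9 the Fracture values lay below the Control ones without passing the test.

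edgeR called 0 of 11787 genes in basophils, against 2194 at an unadjusted p under 0.05, among them 3 of the 4 members tested, and DESeq2 called 762 genes. The Fracture basophils number only 27 and 25 cells, and the chondrocyte marker list summed in them to 18330 and 28343 CPM, against 2081 and 958 CPM in Control basophils. The part of that in the lower chemokine levels was not tested. The basophil list itself summed to 52489 and 55676 CPM in Control and 33935 and 29726 CPM in Fracture basophils, and mast cell markers to at most 1.15 CPM.

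The level of these genes went with the gate value. In Control cells with a gate value under 1 per 10000, Ccl3 stood at 4.71 CPM, between 10 and 20 at 253 CPM, between 20 and 50 at 496 CPM and from 50 upward at 1778 CPM. Ccl4 went over the same bins from 8.50 to 409, 691 and 1812 CPM. Ccl6 and Ccl9 reached their level sooner, Ccl6 with 139 CPM at 10 to 20 and 138 CPM from 50 upward, and Ccl9 with 159 CPM at 10 to 20, 322 CPM at 20 to 50 and 329 CPM from 50 upward. Cells near the gate, between 15 and 25 per 10000, numbered 194, 22, 1 and 1 in the 4 preparations, and 92.5, 98.5, 85.2 and 88% of the gated cells lay in blood clusters.

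Within Control basophils Ccl4, Ccl6 and Ccl9 were each more frequent in cells with Ccl3 than in cells without it. Ccl4 was held by 69.6 and 52.4% of Ccl3+ Control basophils against 15.3 and 8.73% of those without Ccl3, and in Fracture by 60.8 and 62.2% against 38.7 and 21.6%. For Ccl6 the Control shares were 14.6 and 18.8% against 2.10 and 2.86%, and for Ccl9 35.9 and 34.4% against 14.5 and 18.7%. In the 27 and 25 Fracture basophils the Ccl9 shares lay close together, at 17.3 and 25.1% with Ccl3 and 16.4 and 20.4% without it. Ccl9 was held by 53.6 and 46.3% of Ccl6+ Control basophils against 21.3 and 22.9% of the others, whereas the order was the other way in Fracture, with 8 and 9.23% against 17.2 and 22.0%, where only 5 and 3 basophils held any Ccl6.

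Other blood classes held these genes with a different balance. Neutrophil-like cells had the highest Ccl6, at 2503 and 758 CPM in Control on 291 and 131 UMIs, and 0 and 79.6 CPM in Fracture on 0 and 6 UMIs in 8 and 9 cells. Basophil-like cells, which cluster with basophils but miss the gate, held 168 and 134 CPM of Ccl3 and 163 and 201 CPM of Ccl9 in Control, and 14.0 and 9.35 CPM of Ccl3 with 182 and 81.0 CPM of Ccl9 in Fracture. Dendritic-like cells held Ccl9 at 130 and 109 CPM in Control and at 132 and 175 CPM in Fracture. Neutrophil-like cells held 0 and 1 UMIs of Ccl9 in Control and 32 and 19 of Ccl3. None of the members was called in basophil-like cells, where edgeR called 0 of 8171 genes, with 1292 at an unadjusted p under 0.05, and DESeq2 300.

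Ccl3 and Ccl4 were low in the stromal classes, and each fell in some of them after fracture. In dpMSC-like cells Ccl3 went from 18.1 and 3.30 CPM to 0.442 and 0.426 CPM (log2 fold change -4.32 ± 1.27, adjusted p = 0.0407), although 66 of the 145 UMIs of Control 1 came from 1 cell, and in endothelial-like cells from 7.79 and 1.61 CPM to 0.0919 and 0.0740 CPM (log2 fold change -5.53 ± 1.25, adjusted p = 0.0300). In chondrocyte-like cells Ccl3 went from 4.77 and 2.12 CPM to 0.214 and 0.354 CPM (log2 fold change -3.51 ± 0.48, adjusted p = 0.0102, 36.7% of genes called), with 15 of the 26 UMIs of Control 2 in 1 cell, and in osteoblast-like cells from 4.71 and 1.41 CPM to 0.375 and 0.0909 CPM (log2 fold change -3.84 ± 0.86, adjusted p = 0.0470). In BMSC-like cells, at 14.6, 2.78, 2.47 and 0.609 CPM, Ccl3 did not pass (adjusted p = 0.118), nor did it in mpMSC-like cells, at 10.0, 1.87, 5.33 and 0.858 CPM with overlapping groups (adjusted p = 0.514). Ccl4 fell in BMSC-like cells from 14.0 and 1.91 CPM to 0.0988 and 0.0870 CPM (log2 fold change -6.11 ± 1.58, adjusted p = 0.0315), and it also fell in dpMSC-like (log2 fold change -6.02) and chondrocyte-like cells (log2 fold change -3.89). Ccl4 did not pass in endothelial-like cells, at 12.0, 1.48, 0.459 and 0.370 CPM (adjusted p = 0.0645), or in osteoblast-like cells, at 4.71, 0.877, 0.482 and 0.227 CPM (adjusted p = 0.0922). In smooth muscle-like cells neither was tested, and Ccl3 overlapped there at 6.77, 0, 2.17 and 2.72 CPM. Except for Ccl3 and Ccl4 in chondrocyte-like cells, these calls entered the test through Control counts, with 1 or 2 UMIs per Fracture preparation for Ccl3 in dpMSC-like and endothelial-like cells. In each of these values the 2 Control preparations differed, Control 1 always being the higher. Ccl6 in stroma was low as well, at 2.77, 0.635, 0.395 and 0.348 CPM in BMSC-like cells, where it did not reach the low-count filter. In chondrocyte-like cells Ccl6 stood at 0.440, 0.0815, 0.428 and 0.453 CPM, with no call.

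Mcpt8, the defining basophil protease, was likewise higher in the stromal classes of Control 1 than in those of Control 2. It measured 37.4 to 100.2 CPM in stromal classes of Control 1, 11.9 to 25.1 CPM in those of Control 2 and 0.542 to 13.2 CPM in those of Fracture. For each 100 UMIs of Mcpt8, Control basophils held 11 and 7.14 UMIs of Ccl3 and erythroid-like cells of Control, which should lack both genes, held 9.19 and 8.87. Stromal classes of Control 1 held 6.76 to 18.3 and those of Control 2 held 0 to 13.4. For Ccl4 the Control basophils held 12.4 and 5.44, the stromal classes of Control 1 held 12.3 to 17.3 and those of Control 2 held 5.91 to 15.2. The stromal ranges of Control thus included the basophil value of the same preparation, except for Ccl4 in Control 2, where the stromal range lay above it. The Ccl3 range of Control 2, from 0 to 13.4, is wide, so that its including the basophil value says little. These ratios of Ccl3 and Ccl4 cover Control only. In mpMSC-like cells Mcpt8 was called lower in Fracture, whereas Ccl3 overlapped between the groups. Of its 22 UMIs there in Fracture 1, 11 came from 1 cell. In Fracture dpMSC-like cells Ccl4 was counted 1 and 0 times. Of a list of 5 blood genes, 2 or 3 were called lower in each of 8 stromal classes and subsets and 0 were higher. Of all genes 14.7 to 53.3% were called there, by class. In fibroblast-like, mpMSC-like and smooth muscle-like cells Mcpt8 and Prss34 came through the low-count filter on Control counts alone. The part of free basophil RNA in the stromal values of Ccl3 and Ccl4 was not tested.

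In dpMSC-like cells Ccl9 stood apart from Ccl3 and Ccl4 in this respect. Its ratios in the other stromal classes are not given, and its Control mean in chondrocyte-like cells was only 1.55 CPM. Ccl9 held 1.88 and 1.83 UMIs per 100 of Mcpt8 in Control basophils but 31.3 and 86.6 in Control dpMSC-like cells, and 77.8 and 87.1 in Fracture dpMSC-like cells against 1.72 and 2.65 in Fracture basophils. Its level in dpMSC-like cells fell from 30.9 and 21.4 CPM to 9.27 and 11.5 CPM (log2 fold change -1.09 ± 0.24, adjusted p = 0.0174), and in BMSC-like cells from 18.1 and 15 CPM to 5.73 and 7.83 CPM (log2 fold change -1.09 ± 0.21, adjusted p = 0.0138), or from 16.7 and 14.3 CPM to 4.26 and 4.71 CPM without integration. As for Ccl19, the BMSC-like class without integration holds unlike cells in the groups. In fibroblast-like cells it measured 2.48, 4.61, 6.64 and 6.29 CPM and did not pass (adjusted p = 0.110). When stromal cells with any UMI of Ptprc, Tyrobp, Fcer1g, Mcpt8 or Prss34 were taken out, the fall of Ccl9 was -1.20 in dpMSC-like and -1.38 in BMSC-like cells and was still called. This removal was unequal between the groups. It left 538 of 1658 and 737 of 1217 dpMSC-like cells in Control, and 370 of 423 and 382 of 445 in Fracture. Ccl3 was then still called in dpMSC-like (log2 fold change -4.18) and osteoblast-like cells (log2 fold change -4.66) and Ccl4 in BMSC-like (log2 fold change -6.42) and chondrocyte-like cells (log2 fold change -4.04). Of these, all but Ccl4 in chondrocyte-like cells had entered the main test through Control counts alone, so that their kept calls add little. Ccl3 in chondrocyte-like cells (log2 fold change -2.98) lost its call, and Ccl3 in endothelial-like and Ccl4 in dpMSC-like cells no longer came to a test. Ccl2 in osteoblast-like (log2 fold change 2.52) and Ccl19 in chondrocyte-like cells (log2 fold change -0.76) also lost their calls.

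**Figure D4:**
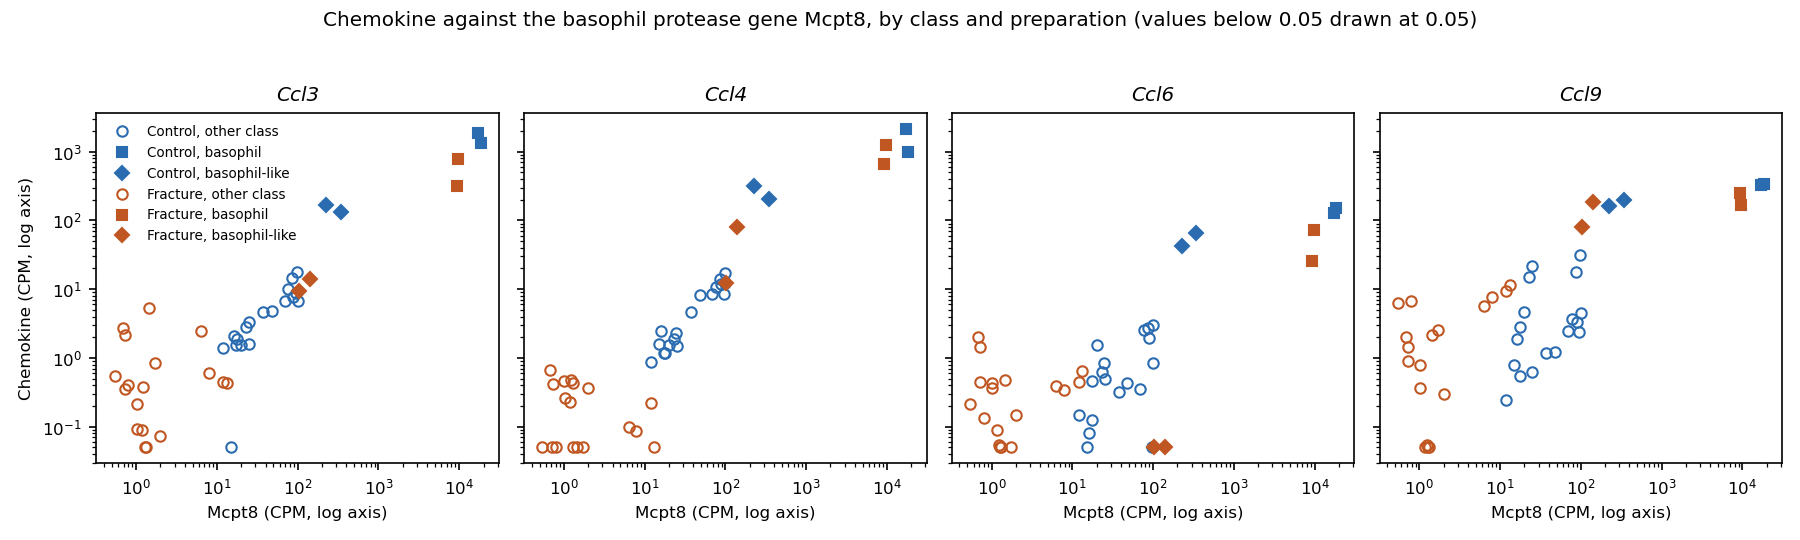
Level of Ccl3, Ccl4, Ccl6 and Ccl9 (CPM, vertical axis, logarithmic) against that of Mcpt8 (CPM, horizontal axis, logarithmic), with 1 point per class and preparation and values below 0.05 CPM drawn at 0.05. Control stromal points of Ccl3 and Ccl4 lie near a line through the basophils, save for Ccl3 in smooth muscle-like cells of Control 2, with 0 UMIs. Ccl9 in dpMSC-like cells lies above such a line, with 31.3 and 86.6 UMIs per 100 of Mcpt8 in Control against 1.88 and 1.83 in basophils.

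The share of cells with a UMI was compared after each cell was brought to 1000 UMIs, which leaves 20372 Control and 24652 Fracture cells. An exact permutation test of 2 against 2 preparations cannot go below p = 0.33, so only the values and the overlap of groups are given. Ccl2 was held by 5.71 and 5.52% of Control dpMSC-like cells and by 5.82 and 7.80% of Fracture ones, and by 0.107 and 0% of Control smooth muscle-like cells against 7.58 and 5.39% of Fracture ones. Ccl7 was held by 2.34 and 1.17% of dpMSC-like cells in Control and 6.07 and 6.70% in Fracture. Ccl5 was held by 0 and 0.146% of fibroblast-like cells in Control and 2.65 and 2.66% in Fracture. Ccl19 was held by 3.21 and 3.98% of dpMSC-like cells in Control and 0.310 and 0.605% in Fracture. For these 4 genes the share moved the way the CPM did where that was called.

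In basophils Ccl3 was held by 42.7 and 40.6% of cells in Control and by 40.4 and 25.8% in Fracture at 1000 UMIs, and by 63.0, 66.6, 74.1 and 56% of cells not thinned, so the order in unthinned cells did not follow the CPM. In erythroid-like cells, a class that should lack these genes, the shares were 1.58, 0.307, 0 and 0% for Ccl3 and 0.507, 0.0828, 0 and 0% for Ccl9, where the median cell held 6365 UMIs (Control) and 7000 UMIs (Fracture), against 9076.5 and 7622 in basophils. The medians in dpMSC-like cells were 5369 and 9259.5 UMIs. Unthinned, Ccl19 was held by 14.2, 22.3, 2.13 and 2.92% of dpMSC-like cells, Ccl2 by 14.0, 16.1, 18.7 and 20.9% of them. Over 10 classes the groups did not overlap in 64 of 87 pairs of member and class, beside 56.4% of such pairs over all genes. By class, they were apart for 9 of 9 members in BMSC-like cells (65.4% of all genes), 9 of 9 in dpMSC-like (63.9%), 5 of 8 in mpMSC-like (55%), 8 of 9 in fibroblast-like (51.8%), 6 of 9 in smooth muscle-like (51.2%) and 7 of 9 in endothelial-like cells (58.3%). They were apart for 7 of 9 in chondrocyte-like cells (62%), 7 of 9 in osteoblast-like cells (50.5%), 3 of 9 in basophils (50.5%) and 3 of 7 in erythroid-like cells (52.7%).

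**Figure D5:**
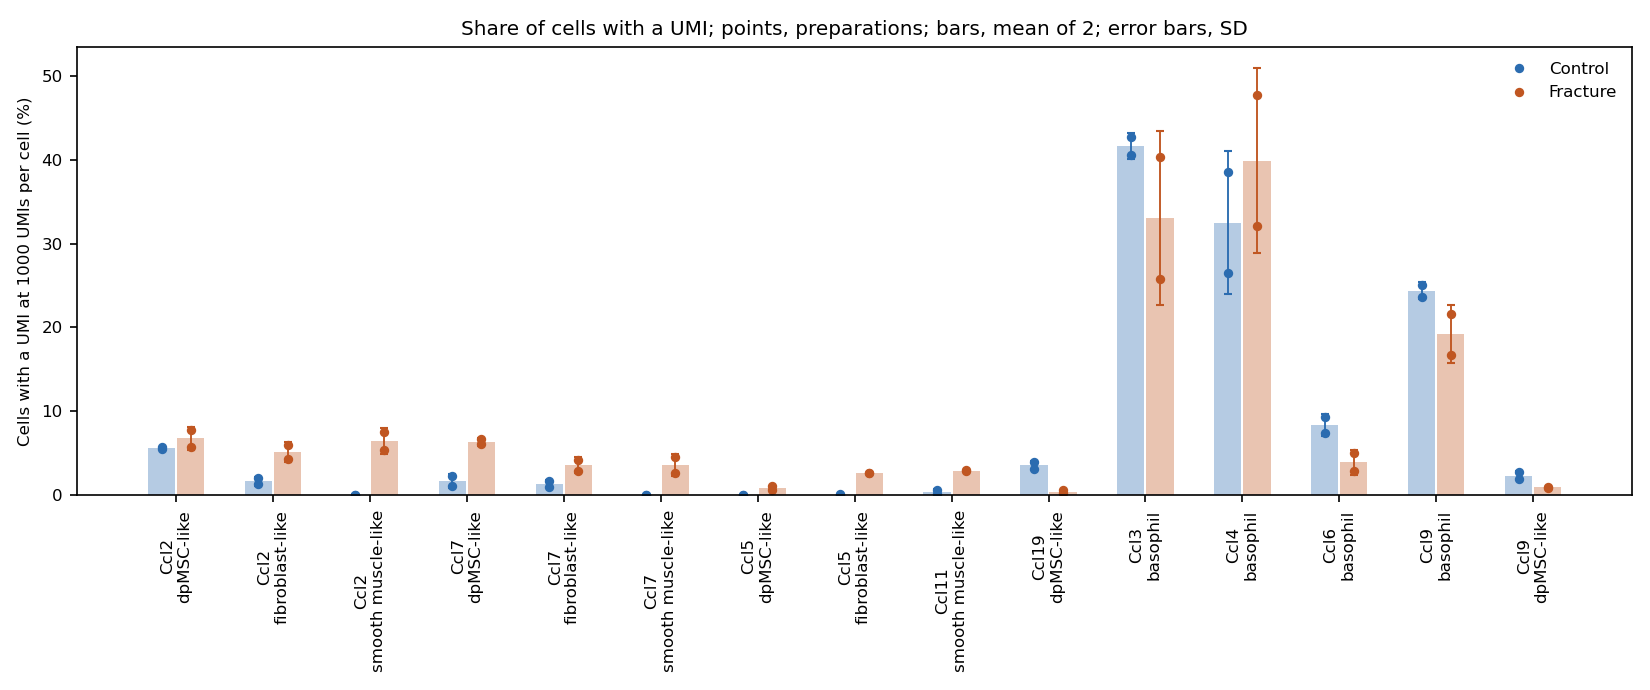
Share of cells with a UMI of the gene (percent, vertical axis) after each cell was brought to 1000 UMIs, by class, where bars start at 0 and give the mean of the 2 preparations of a group, error bars the SD and points the preparations. The Fracture bars of Ccl2 in smooth muscle-like cells (7.58 and 5.39%) stand above Control (0.107 and 0%), and the Ccl19 bars in dpMSC-like cells stand the other way.

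Whether the fracture effect itself differed between classes was tested with a class-by-group term, BMSC-like cells against each of 5 other stromal classes, and 11 of 41 member terms were called (1 of 7 against chondrocyte-like, 3 of 8 against osteoblast-like, 2 of 9 against fibroblast-like, 2 of 8 against endothelial-like and 3 of 9 against smooth muscle-like cells). The log2 change of Ccl2 in BMSC-like cells lay below that in each of the 5. The difference to chondrocyte-like cells was -2.12 ± 0.57 (adjusted p = 0.0175, 46.5% of genes called) and that to osteoblast-like cells -3.08 ± 0.50 (adjusted p = 0.00112, 37% called). It was -1.72 ± 0.46 to the fibroblast-like class (adjusted p = 0.0327, 19.9% called) and -2.17 ± 0.37 to the endothelial-like class (adjusted p = 0.00609, 26.5% called). Smooth muscle-like cells were farthest from BMSC-like cells in this, with a difference of -6.92 ± 0.63 (adjusted p = 5.3e-06, 18.9% called). Ccl2 thus had its fracture effect lowest in the integrated BMSC-like class in all 5 comparisons. That class pools subsets, and their mix differed between the groups. Its dpMSC-like cells were 1647 of 2586 and 1211 of 1714 in Control, and 385 of 1041 and 409 of 1125 in Fracture. The log2 fold change of Ccl2 was 0.47 in dpMSC-like and -2.33 in mpMSC-like cells, neither called. The part of this mix in the 5 differences was not tested. Ccl9 differed in opposite ways, 3.67 ± 1.21 against osteoblast-like and -2.27 ± 0.43 against fibroblast-like cells (adjusted p = 0.0397 and 0.00770).

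The receptors of these ligands were counted from a list of 14. Over all cells, 4 of 12 CC receptor genes tested fell and 0 rose, beside 14.9% lower and 13.6% higher of all genes. Among the 4, Ccr3 came through the low-count filter on its Control counts alone. Ccr1, which binds Ccl3, Ccl5 and Ccl9, went from 32.7 and 26.6 CPM to 0.285 and 0.343 CPM, and Ccr2, which binds Ccl2 and Ccl7, went from 11.2 and 7.25 CPM to 0.306 and 0.3 CPM. Both were lower in the group with the lower blood share, whose part in this was not tested. By class, 1 of 5 tested fell and 0 rose in BMSC-like cells (51.7% of all genes called), 2 of 6 fell in endothelial-like (36.9%), 2 of 7 in chondrocyte-like (Ccr1 and Ccr2, through their Control counts alone, 36.7%), 1 of 4 in fibroblast-like (14.7%), 1 of 4 in osteoblast-like (16%) and 1 of 1 in mpMSC-like cells (27.7%), with 0 higher in these. In dpMSC-like cells 1 of 3 fell and 2 rose (53.3%). The atypical receptor Ackr4, which takes up Ccl19 and related ligands, fell in BMSC-like cells from 240 and 247 CPM to 54.8 and 56.9 CPM (log2 fold change -1.94) and in dpMSC-like cells from 298 and 275 CPM to 33.3 and 44.3 CPM (log2 fold change -2.64). Both classes also carried far less of their own marker genes in Fracture, and the part of this in the fall of Ackr4 was not tested. Ackr2, a scavenger of inflammatory CC chemokines, fell in fibroblast-like cells from 60.5 and 88.3 CPM to 10.4 and 12.4 CPM. Ackr1, the venular chemokine receptor named Darc in the tables, fell in endothelial-like cells from 172 and 264 CPM to 105 and 112 CPM. The 2 calls of a rise in dpMSC-like cells, Ackr1 (log2 fold change 1.95) and Ccrl2 (log2 fold change 1.69), which holds chemoattractants at the cell surface, rest on 12, 6, 17 and 17 UMIs of Ackr1 and 7, 5, 8 and 11 UMIs of Ccrl2, and both genes came through the low-count filter in Fracture alone.

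Of the other CC ligands, 2 of 5 tested in BMSC-like cells rose and 1 fell, beside 51.7% of all genes called there. All 3 (Ccl20, Ccl24 and Ccl17) came through the low-count filter only in the group where they were high, so that their calls add little to the levels. Ccl24, another eotaxin, went from 0.264 and 0 CPM to 3.16 and 3.91 CPM, and Ccl17, a ligand of Ccr4, went from 4.62 and 6.99 CPM to 0.198 and 0.174 CPM. In fibroblast-like cells Ccl21a, the other Ccr7 ligand, went from 11.3 and 33.8 CPM to 0.133 and 0 CPM, on 32, 44, 1 and 0 UMIs, and likewise entered the test through its Control counts.

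Genes known to respond to NF-kB, a transcription factor that also drives many chemokines, were counted from a list of 18. In chondrocyte-like cells no member was called higher, while Ccl2 (log2 fold change 1.80) and Ccl7 (1.67) lay higher in Fracture without passing. Of the list, 12 of 18 tested rose there and 0 fell, beside 36.7% of all genes called in either direction. In smooth muscle-like cells 6 of 15 rose and 0 fell (26.8% of all genes called), in fibroblast-like cells 4 of 18 rose and 0 fell (14.7%), in osteoblast-like cells 7 of 17 rose and 2 fell (16%), and in dpMSC-like cells 8 of 18 rose and 6 fell (53.3%). In BMSC-like cells 7 of 18 rose and 5 fell, in endothelial-like cells 7 of 17 rose and 3 fell (36.9%), and in mpMSC-like cells 5 of 15 rose and 3 fell (27.7%). Among these calls, Ptgs2 and Cxcl2 in dpMSC-like, Ptgs2 and Il6 in fibroblast-like, Cxcl1 and Tnfaip3 in mpMSC-like, Cxcl1 in osteoblast-like and Cxcl2 in smooth muscle-like cells came through the low-count filter only in the group where they were high. Cxcl1, a neutrophil chemokine, rose in dpMSC-like cells from 13.1 and 7.70 CPM to 119 and 206 CPM and in smooth muscle-like cells from 12.7 and 34.0 CPM to 172 and 135 CPM. Il6 rose in smooth muscle-like cells from 7.62 and 14.2 CPM to 78.7 and 55.0 CPM, and Ptgs2, the inducible prostaglandin synthase, rose in BMSC-like cells from 1.32 and 0.794 CPM to 81.2 and 63.7 CPM. The genes given with levels all rose, beside the falls counted above. The median log2 fold change of the list was -0.00396 in BMSC-like and 0.396 in dpMSC-like cells, as the integrated clusters hold them.

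Early response genes, which tissue dissociation is known to induce, moved with the group in some classes. All 12 genes of this dissociation list rose in dpMSC-like cells (53.3% of all genes called), 10 rose in BMSC-like (51.7%), 10 in osteoblast-like (16%) and 8 in mpMSC-like cells (27.7%), and 0 fell in these classes. In dpMSC-like cells its sum went from 1669 and 1855 CPM to 3832 and 3985 CPM. In smooth muscle-like cells 1 rose and 1 fell, and the dissociation sum overlapped, at 6427 and 3593 CPM in Control and 5496 and 4550 CPM in Fracture. Their part in the chemokine values was not tested.

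The genes whose level ran most like each member over the 40 sums of class and preparation were named by Pearson's r of log2 CPM among 11202 genes with the other members left out, as a description of sums that share libraries and cell makeup. For Ccl2 these were Podn (r = 0.890), Entpd2 (0.866) and Cx3cl1 (0.843), and for Ccl7 Mfap5 (0.870), Dpt and Podn, which include fibroblast markers. Ccl3 ran with Cyp4f18 (0.957), Tyrobp and Fcer1a, and Ccl4 with Fcer1a (0.981), Cpa3 and Tyrobp, which include basophil markers. Ccl9 ran with Tec (0.954), Ccl11 with Galnt16 (0.907) and Ccl19 with Il7 (0.925), a lymphocyte growth factor of stroma. With members counted, the nearest of all was another member for Ccl2 and Ccl7 (r = 0.924 with each other) and for Ccl3 (r = 0.969 with Ccl4).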

How the data were processed

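Suspensions of stromal cells were profiled by droplet single-cell RNA-seq (10x Genomics 3′, version 3 chemistry). The submitters' processing notes name bcl2fastq 2.19.1.403, UMI-tools 1.0.0, STAR 2.7.3a, Subread featureCounts 1.6.4 and build mm10, whereas the study's methods name the same demultiplexer, aligner and build but STARsolo for barcodes and counting, and which counter was applied was not settled. The authors deposited, per library, a table of raw UMI counts per gene and cell. Control tables hold barcodes down to 1 to 3 UMIs and Fracture tables down to 1929 to 2724 UMIs, so the barcode cut differed between groups.

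Cells with 500 to 6000 genes and at most 25% mitochondrial UMIs were kept (45328 of 48903), clustered with Seurat 5.3.0 after integration, and named from fixed markers. Counts were summed per preparation and class and tested with edgeR 4.0.16 (TMM, filterByExpr, quasi-likelihood, Benjamini-Hochberg over all genes tested). Named genes are the 9 members in every class and, of the other lists, genes called in a class, up to 6 per class, plus genes nearest in pattern. Shares are expected values over all draws of 1000 UMIs per cell. Doublets (722 cells marked) were kept and removed as an alternative. The script was tested on simulated data. The members and lists were chosen with earlier results of these data known. 3′ UMI counts were not divided by length, and no test compared levels between genes. Ratios to Mcpt8 are descriptions. The coding sequence of 1 member is not reported here.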

Additional observations from a re-analysis of the deposited data

Results flagged for a closer look

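In 11 of 41 cases tested, beside 18.9 to 46.5% of all genes by class, the effect of fracture on a member differed between BMSC-like cells and another stromal class by edgeR's class-by-group term, with preparation as a block (adjusted p under 0.05). Each value is the log2 change in BMSC-like cells minus that in the other class. For Ccl2 it was -2.12 against chondrocyte-like, -3.08 against osteoblast-like, -1.72 against fibroblast-like, -2.17 against endothelial-like and -6.92 against smooth muscle-like cells. For Ccl9 it was 3.67 against osteoblast-like and -2.27 against fibroblast-like cells.

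For Ccl7 it was -10.0 against smooth muscle-like cells, whose Control sums held 0 UMIs of Ccl7, and for Ccl19 it was -7.06 against the same class, whose Control sums held 1 UMI of Ccl19. For Ccl4 it was -3.01 against osteoblast-like cells and for Ccl3 3.13 against endothelial-like cells, where Mcpt8 moved with both genes. The size of these 4 values, of that of Ccl9 against osteoblast-like cells and of that of Ccl2 against smooth muscle-like cells, where Control held 7 and 0 UMIs of Ccl2, depends on how the fit treats near-empty groups. Fracture sums held 2 UMIs of Ccl4 in BMSC-like cells, 2 of Ccl3 in endothelial-like cells and 1 of Ccl9 in osteoblast-like cells. Since the Fracture cells called BMSC-like carried few BMSC markers, all 11 compare what the integrated clusters hold.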

How the results depend on the processing

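Member calls over the 11 classes numbered 23, and 40 with no low-count filter, which tests more members. For this and the alternatives below the share of all genes called is not given, so their counts cannot be read against it. Leaving out 1 preparation at a time gave 4 to 49 calls (4 without Fracture 1, 5 without Fracture 2, 34 without Control 1 and 49 without Control 2). Over all cells 8 members were called, and 0 to 9 with a preparation left out, 0 without either Fracture preparation. The class-by-group terms gave 11 calls, and 8 to 20 with a preparation left out, the 20 without Control 2. Shares of cells that did not overlap numbered 64, and 61 at 2000 UMIs and 62 unthinned. With a preparation left out they numbered 70 to 75, but dropping a value cannot make groups overlap. This count could therefore not fall below 64 and tests nothing.

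Of the 42 called single values, 31 lost the call without Fracture 1 and 31 without Fracture 2, and all kept their direction there. Without Control 1, 2 lost it (Ccl19 in chondrocyte-like cells and the Ccl9 term against osteoblast-like cells), and without Control 2 none did. Without integration, Ccl7 in BMSC-like cells reversed to -6.00, and Ccl4 there, at -9.19 (adjusted p = 0.0702), lost its call. The cause was not tested. Ccl2 in smooth muscle-like cells, fitted against 7 and 0 Control UMIs, ranged from 6.04 to 10.5. Ccl19 in BMSC-like cells and Ccl2 and Ccl7 in smooth muscle-like cells kept call and direction in all 16 alternatives run. The 2 smooth muscle-like calls had entered the main test through Fracture counts alone.

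Preparation 1 and 2 of the groups share only a number. Deviations of same-numbered preparations correlated at 0.0159 to 0.147 over genes, by class. With the number as a replicate block, 25 calls were made over the classes and 7 over all cells, and Ccl11 over all cells, Ccl19 in chondrocyte-like and Ccl2 in endothelial-like and osteoblast-like cells lost theirs.

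Log2 fold changes on plain CPM differed from those with TMM by -0.284 to 0.0736, by class (plain CPM minus TMM), and those with median-ratio factors by at most 0.0583. The calls were then 23, as with TMM. Sparse counts limit Ccl11 and Ccl5 in Control, and 25 and 27 Fracture basophils limit the basophil comparison. With the basophil gate applied inside blood clusters only, chosen after seeing the data, 27 calls were made.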

Other observations

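Some CC ligands and receptors outside the 9 members also differed by class. Ccl20, a ligand of Ccr6, was counted in no Control dpMSC-like cell sum and stood at 7.95 and 2.55 CPM in Fracture. In dpMSC-like cells Ccl17 went from 8.22 and 10.5 CPM to 0.442 and 0.426 CPM (log2 fold change -4.14), and it came through the low-count filter in Control alone. Ccl27a, an epithelial type of chemokine, was called in opposite directions, lower in fibroblast-like (log2 fold change -1.44) and chondrocyte-like cells (log2 fold change -1.04) and higher in osteoblast-like cells (log2 fold change 1.36), and whether these changes differ was not tested. Ackr4 fell in mpMSC-like cells from 184 and 191 CPM to 89.3 and 82.6 CPM and in osteoblast-like cells from 40.6 and 45.7 CPM to 20.5 and 18.5 CPM.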
